A study of Mus musculus with 18 samples.

Results

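The collagen chain genes of the mouse were followed through 18 RNA-seq libraries, 12 of colorectal tissue and 6 of tumor organoids. Members were every row of the count table whose gene symbol read Col, a number, the letter a and a second number, which gave 44 of the 36757 genes listed. By the structure of the collagens they build, they fell into 11 fibrillar chains, 6 basement membrane chains of type IV, 6 beaded filament chains of type VI, 9 fibril-associated (FACIT) chains, 3 short-chain network chains of types VIII and X, 4 transmembrane chains, 2 multiplexins, the anchoring fibril chain *Col7a1*, and 2 others, *Col26a1* and *Col28a1*. The mice were C57BL/6, labelled wild type (floxed, RNF138fl/fl, in the treatment protocol) or RNF138-/-; RNF138 is a ubiquitin ligase of the cell, and the study asked how its loss alters colitis and the colon tumors that follow it. In the DSS groups, mice that were 6 to 8 weeks old at the start drank 2% dextran sulfate sodium (DSS) for 7 days and then water for 14 days, in repeated cycles, and were sacrificed 4 weeks after the last cycle, which gives a chronic colitis. In the AOM/DSS groups, the same cycles began 4 days after an injection of 10 mg/kg azoxymethane (AOM), a carcinogen, and tumors arose in the inflamed colon. In the organoid groups, cells of such tumors, freed by enzymes, had been grown in Matrigel, a basement membrane gel. Each model had 3 libraries of each genotype label. How many mice or cultures stand behind the 3 libraries, and the promoter or Cre line behind the deletion, are not given in the sources used here, so the p-values measure the spread between these libraries, which may be technical.

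Collagens are built from 3 chains that wind around each other into a triple helix, for which a glycine, the only residue small enough for the core, must recur at an even step along each chain. Fibrillar collagens, types I, III and V foremost in the gut wall, form the cables of the submucosa and of scars and are made chiefly by fibroblasts and smooth muscle cells. Type IV collagen forms the sheet-like network of basement membranes under epithelium and around vessels and muscle, and the remaining types coat fibrils, anchor membranes or sit on cell surfaces.

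The libraries held 11514716 to 24390082 counts. Levels below are CPM, read counts relative to the library total after TMM scaling, which corrects for differences in composition between libraries, and levels of different genes were compared only as CPM per kb of exon length. The targeted gene was not lower in the libraries labelled RNF138-/-: *Rnf138* stood at 16.0 to 25.5 CPM in wild type and 18.1 to 19.5 CPM in labelled RNF138-/- DSS colon, at 21.0 to 28.0 and 39.6 to 45.3 CPM in AOM/DSS colon, and at 37.4 to 55.2 and 42.6 to 49.9 CPM in organoids. The genotype below is therefore the label of a library and not a measured loss. All 12 tissue libraries expressed the Y-linked *Kdm5d* and *Ddx3y*, as did the 3 organoid libraries labelled RNF138-/-, whereas the 3 wild type organoid libraries had 0 counts of both and 386 to 460 CPM of *Xist*, so genotype and sex cannot be told apart in the organoids, nor model and sex between wild type organoids and tissue. Of the markers fixed for the cells a colon can hold, those of intestinal epithelium summed to 9404 to 10405 CPM in wild type organoids and 5490.5 to 8024 CPM in labelled RNF138-/- organoids, beside 8526 to 16034 and 6679 to 8129 CPM in AOM/DSS colon. Leukocyte markers summed to 289.5 to 608 and 467 to 686 CPM in AOM/DSS colon and 7.60 to 15.5 and 81.4 to 121 CPM in organoids, where Cd3e was at 0. In bulk tissue, fewer cells of a type and less RNA per cell cannot be told apart.

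The repeat that makes a collagen was read from the coding sequence, and the runs of glycine triplets set the fibrillar chains apart from the rest. In 9 of the 11 fibrillar chains the longest unbroken run of codon triplets that start with a glycine codon was 337 to 344 triplets long, and it was 216 in *Col24a1* and 217 in *Col27a1*. The longest run of any other chain was 113 triplets, in the FACIT chains *Col9a1*, *Col9a2*, *Col9a3* and *Col22a1*. In the type IV chains it was 39 to 66 triplets, and the coding sequence held 23 to 27 such runs. To show this difference, 14 triplets that open the longest run are given for 2 of the 3 fibrillar chains highest per kb in organoids (*Col1a1*, codons 168 to 209, and *Col3a1*, codons 164 to 205), for the short-chain *Col10a1* (codons 299 to 340; chr10:34389981-34397085) and for the FACIT chain *Col12a1* (codons 2805 to 2846; chr9:79598991-79718831). For *Col4a1* (codons 142 to 183) and *Col4a2* (codons 954 to 995) the stretch runs across the end of the longest run. The glycine codons that open a triplet of the repeat are in capitals and all other codons, further glycines among them, in lower case, 5′ to 3′, from GENCODE M21 transcripts (GRCm38, mm10).
Col1a1: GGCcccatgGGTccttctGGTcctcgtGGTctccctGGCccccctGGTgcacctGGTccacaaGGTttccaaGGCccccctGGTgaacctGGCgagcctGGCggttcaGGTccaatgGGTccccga
Col3a1: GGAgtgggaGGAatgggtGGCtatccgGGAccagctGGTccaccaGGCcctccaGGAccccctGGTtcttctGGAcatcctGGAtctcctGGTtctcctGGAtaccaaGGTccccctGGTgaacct
Col10a1: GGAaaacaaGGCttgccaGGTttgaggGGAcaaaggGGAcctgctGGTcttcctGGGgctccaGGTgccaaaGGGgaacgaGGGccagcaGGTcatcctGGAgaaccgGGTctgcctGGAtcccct
Col12a1: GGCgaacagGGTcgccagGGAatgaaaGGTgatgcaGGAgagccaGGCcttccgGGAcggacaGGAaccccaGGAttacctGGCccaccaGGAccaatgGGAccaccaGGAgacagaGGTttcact
Col4a1: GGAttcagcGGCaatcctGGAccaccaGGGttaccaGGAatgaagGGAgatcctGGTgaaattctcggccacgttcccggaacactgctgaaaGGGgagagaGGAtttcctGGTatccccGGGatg
Col4a2: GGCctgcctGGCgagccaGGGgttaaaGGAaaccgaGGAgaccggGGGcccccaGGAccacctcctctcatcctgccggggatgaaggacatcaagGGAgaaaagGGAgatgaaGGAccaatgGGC
In the first 4 stretches the capital codons recur at an even step, and in *Col4a1* and *Col4a2* the capitals stop where the repeat is interrupted. The genes also sit in pairs. *Col4a1* (chr8:11198423-11312826, minus strand) and *Col4a2* (chr8:11312805-11449287, plus strand) start head to head with 22 shared bases, *Col4a3* and *Col4a4* lie 72 bases apart on chromosome 1, and *Col4a5* and *Col4a6* lie 1309 bases apart on chromosome X. *Col3a1* (chr1:45311538-45349706) and *Col5a2* are neighbours on chromosome 1, *Col6a1* and *Col6a2* on chromosome 10, and *Col6a4*, *Col6a5* and *Col6a6* on chromosome 9.

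In colon tissue, collagens took 0.218 to 0.261% and 0.152 to 0.286% of all counts in wild type and labelled RNF138-/- DSS colon, and 0.183 to 0.404% and 0.247 to 0.402% in AOM/DSS colon, so that the 4 tissue groups overlapped. Per kb, 3 classes made up most of this level. Fibrillar chains held 39.0 ± 2.78% (SD, n = 3) of the summed collagen level in wild type DSS colon and 40.2 ± 2.09% in wild type AOM/DSS colon, type IV chains 17.5 ± 0.631% and 22.0 ± 2.87%, and type VI chains 26.0 ± 1.67% and 23.0 ± 4.17%. Shares were described and not tested. In labelled RNF138-/- AOM/DSS colon the type VI share was 10.8 to 13.6%, below the 19.7 to 27.7% of wild type. The FACIT share went the other way, at 10.2 to 12.6% against 5.27 to 7.49% in wild type. The fibrillar share depends on the length used: with the longest transcript in place of all exons it was 45.6% in wild type DSS colon, and the exons of *Col1a2* sum to 12426 bases against 5348 in its longest transcript.

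**Figure D1:**
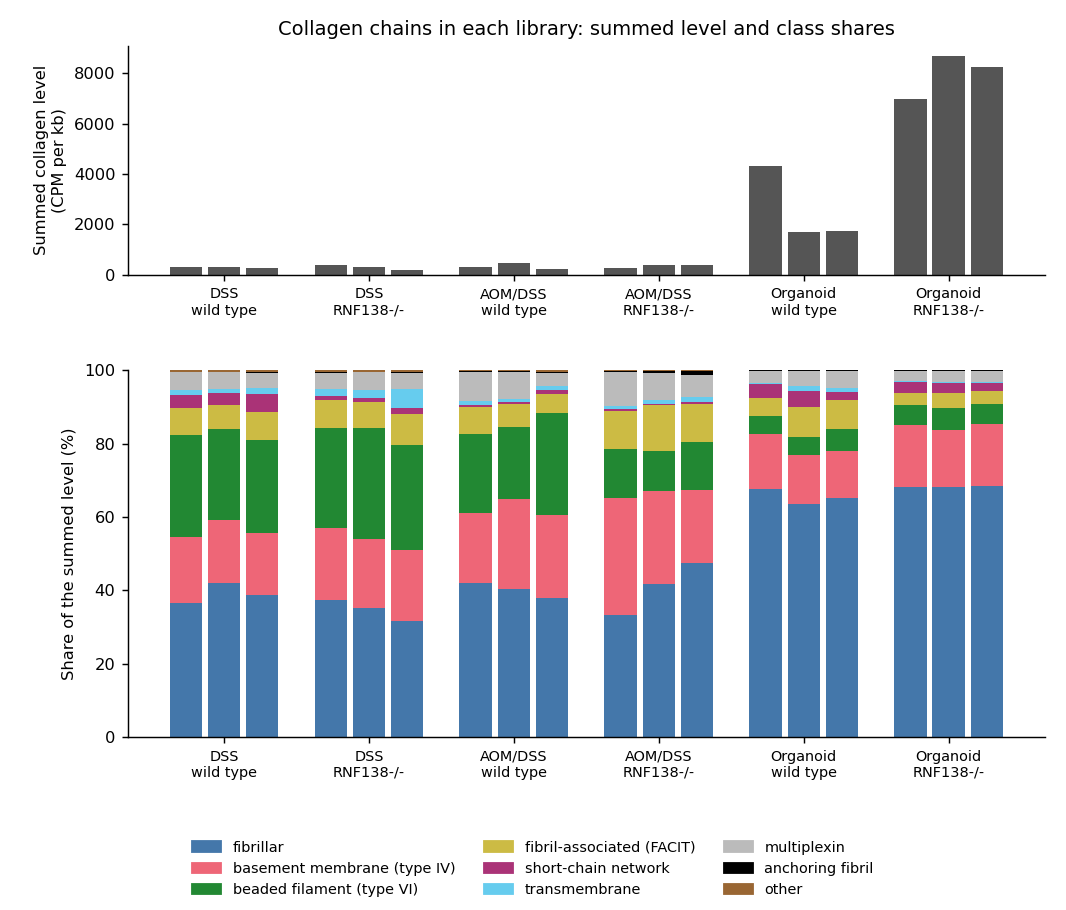
Upper panel: summed level of the 44 collagen chains in each library (CPM per kb of exon length, bars from 0). Lower panel: percent of that sum held by each class, 1 bar per library, 3 libraries per group; the organoid bars are taller in the upper panel and hold 63.5 to 68.4% fibrillar chains, against 31.7 to 47.4% in the tissue libraries.

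The leading chains in tissue, ranked by the mean over the 12 libraries, are given next. *Col3a1*, the chain of type III collagen in the loose connective tissue of hollow organs, was the highest of all chains per kb over the 12 tissue libraries (52.8 ± 18.5 CPM per kb, SD, n = 12). Its level was 421, 516 and 460.0 CPM in wild type DSS replicates 1, 2 and 3, 514, 362 and 218 CPM in labelled RNF138-/- DSS, 651, 798 and 449 CPM in wild type AOM/DSS and 353, 659.6 and 813 CPM in labelled RNF138-/- AOM/DSS. These 4 groups overlap, and the third DSS library labelled RNF138-/- is the lowest of the 12. Type IV was led by *Col4a1*, whose product joins that of *Col4a2* in the basement membranes of nearly every tissue, with 222, 209 and 184 CPM in wild type DSS, 301, 219 and 135 CPM in labelled RNF138-/- DSS, 225, 479 and 228 CPM in wild type AOM/DSS and 366, 452 and 325 CPM in labelled RNF138-/- AOM/DSS. The highest value came from the second wild type AOM/DSS library, whose group otherwise lay with the DSS libraries. Type VI, which forms fine filaments around cells, was led by *Col6a1* (40.5 ± 14.2 CPM per kb), close to *Col4a1* (37.3 ± 14.4 CPM per kb). The difference between *Col6a1* and *Col4a1* is smaller than either SD, and that between *Col3a1* and *Col6a1* smaller than either of theirs. By group means *Col3a1* was first in 3 of the 4 tissue groups, and in DSS colon labelled RNF138-/- *Col6a1* (50.5 ± 17.0 CPM per kb) stood above it (37.2 ± 15.1 CPM per kb).

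The other classes were lower per kb. *Col18a1*, a multiplexin of basement membranes whose tail is the source of endostatin, had 14.3 ± 7.80 CPM per kb. It was at 70.1, 63.5 and 49.2 CPM in wild type DSS colon, 87.5, 73.7 and 31.2 CPM in labelled RNF138-/- DSS colon, 141, 187 and 41.7 CPM in wild type AOM/DSS colon and 155, 178 and 129 CPM in labelled RNF138-/- AOM/DSS colon. For both it and the FACIT chain *Col16a1* (8.06 ± 3.33 CPM per kb) the spread within a group was wide. *Col16a1* was at 66, 66.2 and 43.7 CPM in wild type DSS colon, 112, 66.4 and 37.9 CPM in labelled RNF138-/- DSS colon, 60.2, 41.8 and 36.2 CPM in wild type AOM/DSS colon and 29.6, 37.0 and 56.1 CPM in labelled RNF138-/- AOM/DSS colon. In that last group 3 other FACIT chains had a higher mean per kb than *Col16a1* (6.06 ± 2.03 CPM per kb), namely *Col9a3* (12.7 ± 6.32), *Col9a2* (9.16 ± 4.18) and *Col12a1* (7.08 ± 1.82). *Col8a1* had 3.64 ± 3.99 CPM per kb. The transmembrane *Col23a1* had 3.66 ± 1.92 CPM per kb, with 20.3, 14.9 and 16.8 CPM in wild type DSS colon, 36.3, 28.2 and 44.6 CPM in labelled RNF138-/- DSS colon, 11.6, 16.1 and 11 CPM in wild type AOM/DSS colon and 8.07, 17.0 and 27.0 CPM in labelled RNF138-/- AOM/DSS colon. *Col28a1*, a chain with domains like those of type VI, had 1.08 ± 0.490 CPM per kb, with 8.04, 7.16 and 8.16 CPM in wild type DSS colon, 8.93, 6.53 and 4.54 CPM in labelled RNF138-/- DSS colon, 2.94, 4.03 and 5.09 CPM in wild type AOM/DSS colon and 2.18, 3.52 and 2.29 CPM in labelled RNF138-/- AOM/DSS colon. At the bottom were *Col19a1*, *Col6a6*, *Col10a1*, *Col26a1* and *Col2a1*, each under 1 CPM in every tissue library. *Col10a1*, the collagen of hypertrophic cartilage, had 33 reads in the 12 tissue libraries together, and *Col2a1*, the fibrillar chain of cartilage, 66.

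In organoids the level of the family was several times that of AOM/DSS colon, the model their tumors came from. The wild type cultures differed from the sequenced tissue in *Xist*, *Kdm5d* and *Ddx3y*, as given above, so the tissue values are not those of the tumors they were grown from. Collagens took 1.93 ± 1.01% of counts (SD, n = 3; range 1.32 to 3.10%) in wild type organoids and 5.32 ± 0.469% (range 4.78 to 5.62%) in labelled RNF138-/- organoids. The fibrillar share was 65.5 ± 2.07% and 68.3 ± 0.0981% of the summed level, the type VI share was 5.38 ± 0.592% and 5.65 ± 0.331%, and type IV held 13.6 ± 1.17% and 16.4 ± 0.706%. Neither the fibrillar nor the type VI share of the organoids overlapped that of any tissue group.

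Against AOM/DSS colon of the same label, 42 of the 44 chains passed the filter on low counts (all but *Col19a1* and *Col6a6*). A chain is called when it differed by 2-fold or more with an edgeR adjusted p below 0.05. In wild type, 27 chains were higher in organoids and 3 lower, where 17.5% of all 19390 genes tested were called higher and 26.8% lower. Among libraries labelled RNF138-/-, 26 were higher and 3 lower, against 17.9% and 26.5% of all genes. These counts hold *Col10a1* as higher and *Col6a5* as lower, which passed the filter through 1 side of the comparison and so had to differ. The median log2 fold change of the tested chains was 1.82 and 2.81, and that of all genes -0.14 and -0.22. The culture, the mix of cells and, in wild type, sex all differ between these groups and cannot be told apart.

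Fibrillar chains accounted for 10 of the calls in each label, of 11 tested. *Col1a1* and *Col1a2* (chr11:94936224-94953042, plus strand, and chr6:4504814-4541544, plus strand) encode the chains of type I collagen, the main protein of scars and bone. *Col1a1* was at 113, 261 and 82.4 CPM in wild type AOM/DSS colon and 124, 269 and 271 CPM in labelled RNF138-/- AOM/DSS colon, and at 9366, 3197 and 3372 CPM and 13150.4, 16002 and 15818 CPM in the organoids. The groups are far apart, and the first wild type culture is the highest of its 3. The log2 difference was 5.16 ± 0.62 (SE; edgeR adjusted p = 4.94e-06) in wild type and 6.08 ± 0.65 (edgeR adjusted p = 1.23e-06) in libraries labelled RNF138-/-, that is 35.6-fold and 67.7-fold. The wild type difference was 4.47 without wild type organoid replicate 1 and 5.76 without wild type AOM/DSS replicate 2. *Col1a2* rose from 216, 316 and 157 CPM and 172, 299 and 312 CPM to 7020.5, 2793 and 3394 CPM and 11235, 13687 and 11874 CPM in organoids, a log2 difference of 4.29 ± 0.43 (edgeR adjusted p = 8.61e-07) and 5.56 ± 0.45 (edgeR adjusted p = 9.93e-08). In tissue *Col3a1* outranked *Col1a1* per kb, whereas in organoids *Col1a1* led with 809 ± 535 CPM per kb in wild type and 2284 ± 243 CPM per kb in libraries labelled RNF138-/-, against 313 ± 182 and 1401 ± 186 CPM per kb for *Col3a1*. Per kb of longest transcript the 2 chains were about level in organoids labelled RNF138-/-, with a ratio of *Col3a1* to *Col1a1* of 0.949 to 1.01. *Col3a1* itself stood at 5127, 2089.6 and 1989.6 CPM in wild type organoids and 11704, 15214 and 14330.0 CPM in labelled RNF138-/- organoids, 4.94-fold (log2 2.30 ± 0.40, edgeR adjusted p = 0.000151) and 22.6-fold (log2 4.50 ± 0.44, edgeR adjusted p = 5.51e-07) above AOM/DSS colon. Type V and XI chains, which set the width of type I fibrils, followed: *Col5a1* went from 48.4 to 106 CPM in AOM/DSS colon to 403 to 3029.9 CPM in organoids, *Col5a2* from 78.5 to 193 to 645 to 3639 CPM and *Col11a1* from 0.0531 to 3.24 to 31.6 to 249 CPM, all called in both labels. The wild type log2 differences of *Col5a1* and *Col5a2* were 3.34 ± 0.46 and 3.38 ± 0.42. They were 2.57 and 2.63 without wild type organoid replicate 1. The fibrillar chain without a call was *Col27a1* in wild type (log2 -0.86 ± 0.33) and *Col11a2* in libraries labelled RNF138-/- (log2 -0.20 ± 0.41).

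**Figure D2:**
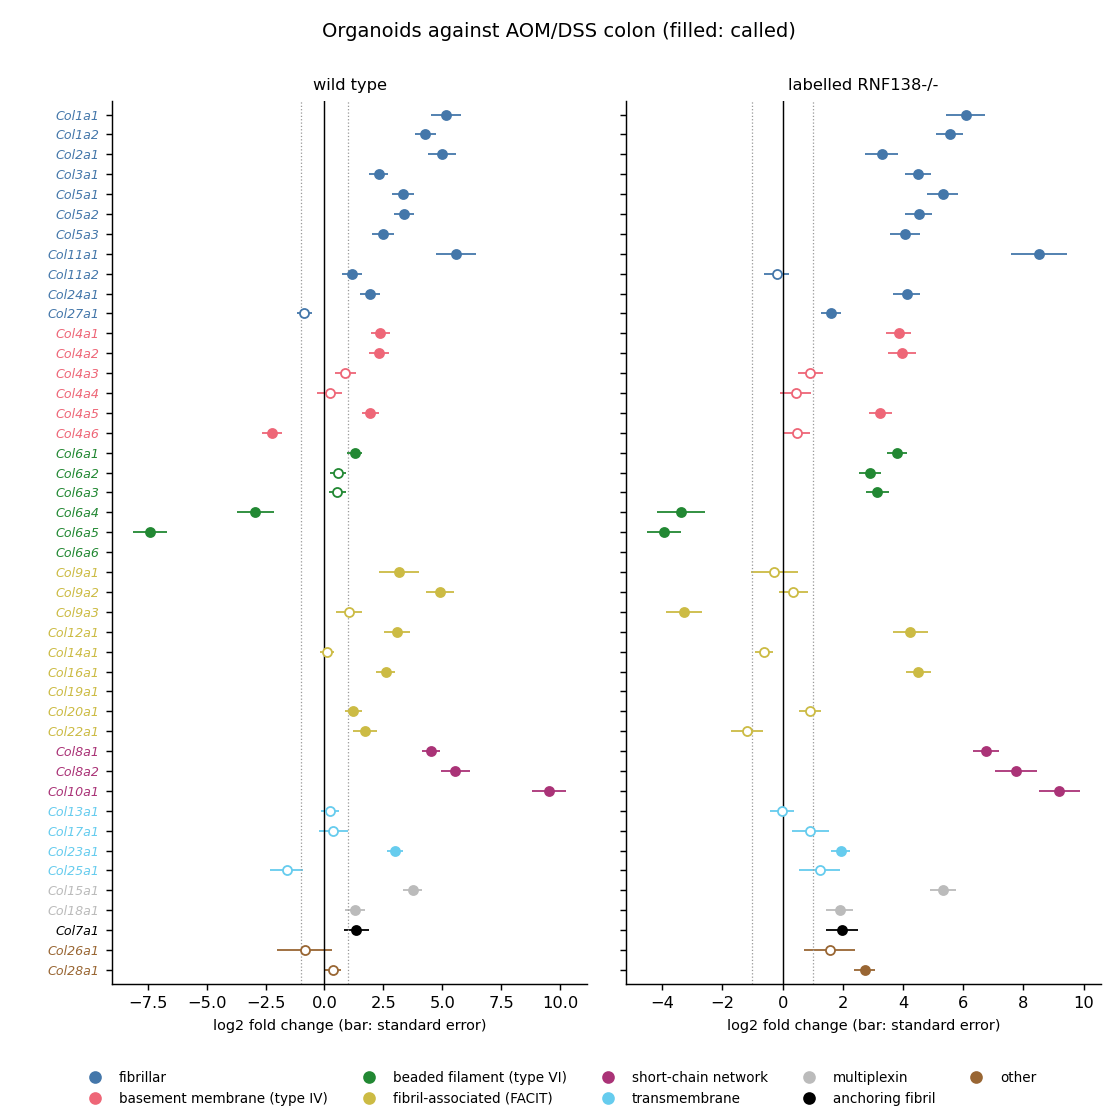
Fitted log2 fold change of each tested chain, organoids against AOM/DSS colon, wild type on the left and libraries labelled RNF138-/- on the right; bars are standard errors, filled points are called, dotted lines mark a 2-fold difference and colours the classes. Fibrillar and short-chain points lie to the right of 0 with 1 fibrillar exception on each side, and Col6a4 and Col6a5 lie to the left.

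Of type IV, 3 of 6 chains were called higher in each label and *Col4a6* lower in wild type. *Col4a1* was 5.15-fold and *Col4a2* 5.01-fold higher in wild type organoids, and 14.5-fold and 15.5-fold higher in libraries labelled RNF138-/-; the edgeR adjusted p of these 4 differences was at most 0.000263. *Col4a1* reached 2742, 999.8 and 971 CPM and 4936, 5639 and 5914 CPM, and *Col4a2* 1764, 563 and 558 CPM and 3347, 3907 and 3949.8 CPM, in wild type and labelled RNF138-/- organoids, from 149.8, 291 and 145 CPM and 229, 281 and 213 CPM of *Col4a2* in AOM/DSS colon. Within a label, the folds of the head-to-head pair were close. *Col4a3* and *Col4a4*, whose chains serve the kidney filter and the ear, stayed at or under 2.23 CPM in every library and were not called. The X-linked pair did not move together in wild type: *Col4a5* was higher in organoids (log2 1.95 ± 0.37, edgeR adjusted p = 0.000307) and *Col4a6* lower (log2 -2.24 ± 0.42, edgeR adjusted p = 0.000293). *Col4a6* was at 5.0, 5.33 and 6.66 CPM in wild type AOM/DSS colon and 1.89, 0.862 and 0.735 CPM in wild type organoids, which do not overlap; of the smooth muscle markers, 7 of 8 were called lower in this comparison. In libraries labelled RNF138-/- *Col4a5* was higher as well, from 7.49, 3.97 and 3.36 CPM to 36.1, 59.1 and 44.8 CPM (log2 3.25 ± 0.39, edgeR adjusted p = 4.23e-06), and *Col4a6* differed by 0.47 ± 0.46 without a call. The differences of all 6 chains were above 0 there, with a median of 2.09 on the log2 scale.

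All 3 short-chain network chains were higher in organoids. *Col10a1* was at most at 0.404 CPM in AOM/DSS colon and at 206, 128 and 36.2 CPM in wild type organoids and 152, 171 and 138 CPM in labelled RNF138-/- organoids. It had 2, 6 and 0 reads in the wild type AOM/DSS libraries and passed the low-count filter only through the organoids, where it is high, so it had to differ and its call is given as a description. *Col8a1*, a chain of the hexagonal lattice under vessel and corneal endothelium, was at 7.12, 10.9 and 15.0 CPM and 8.23, 7.24 and 12.3 CPM in AOM/DSS colon and 415, 192 and 146 CPM and 975, 1212 and 851 CPM in organoids (log2 4.53 ± 0.39 and 6.77 ± 0.43, edgeR adjusted p = 2.41e-07 and 1.16e-08). Its partner *Col8a2* was higher as well, by 5.56 ± 0.63 and 7.74 ± 0.70 on the log2 scale (edgeR adjusted p = 2.62e-06 and 2.53e-07). These were 4.43 in wild type without organoid replicate 1 and 8.37 in libraries labelled RNF138-/- without AOM/DSS replicate 2. The region 250 bases upstream of the start is shown for *Col3a1*, *Col8a1* and *Col10a1*, the leading fibrillar chain of tissue and a pair of short-chain genes that were higher in culture (RefSeq, GRCm38.p6; chr1:45311288-45311537, plus strand; chr16:57754738-57754987, minus strand; chr10:34389731-34389980, plus strand), 5′ to 3′, with the motifs CCAAT (the CCAAT box), GGGCGG (the core of the Sp1 site) and TATAAA (the TATA box) on either strand in capitals.
Col3a1 promoter: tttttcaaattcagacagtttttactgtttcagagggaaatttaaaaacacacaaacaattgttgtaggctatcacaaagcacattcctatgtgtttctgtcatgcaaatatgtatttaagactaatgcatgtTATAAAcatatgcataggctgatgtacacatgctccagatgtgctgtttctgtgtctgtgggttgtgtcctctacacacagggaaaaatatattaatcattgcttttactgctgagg
Col8a1 promoter: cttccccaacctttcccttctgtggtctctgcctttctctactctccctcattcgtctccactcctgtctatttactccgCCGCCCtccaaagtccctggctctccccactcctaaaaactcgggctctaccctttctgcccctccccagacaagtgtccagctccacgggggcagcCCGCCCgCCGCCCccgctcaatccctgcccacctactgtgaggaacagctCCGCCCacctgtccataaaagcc
Col10a1 promoter: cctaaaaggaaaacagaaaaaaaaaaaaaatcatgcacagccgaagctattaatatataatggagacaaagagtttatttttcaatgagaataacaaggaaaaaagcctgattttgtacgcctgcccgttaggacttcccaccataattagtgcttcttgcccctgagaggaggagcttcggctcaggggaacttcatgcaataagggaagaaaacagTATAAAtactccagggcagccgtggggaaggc
The windows of *Col3a1* and *Col10a1* each held 1 TATAAA and neither of the other 2 motifs, and that of *Col8a1* held 4 GGGCGG. Of 38 windows that matched 35 chains, TATAAA occurred in 13.2% (12.4% of all 32851 windows of the same length), CCAAT in 34.2% (33.8% of all) and GGGCGG in 57.9% (32.7% of all); the NF-kB consensus, the fourth motif searched, occurred in 4 of the 38 (3.9% of all). A match is a description of letters and not of a bound factor.

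Type VI did not follow the fibrillar chains as a class. The 3 classical chains *Col6a1*, *Col6a2* and *Col6a3*, which assemble 1 of each into a filament, were higher in labelled RNF138-/- organoids than in AOM/DSS colon by 3.80 ± 0.35, 2.90 ± 0.37 and 3.15 ± 0.39 on the log2 scale (edgeR adjusted p at most 7.44e-06). In wild type the differences were 1.28 ± 0.31, called, and 0.57 ± 0.35 and 0.54 ± 0.36, not called. *Col6a1* was at 158, 222 and 166 CPM in wild type AOM/DSS colon, 85.6, 95.2 and 117 CPM in labelled RNF138-/- AOM/DSS colon, 702, 264 and 341 CPM in wild type organoids and 1172, 1571 and 1404 CPM in labelled RNF138-/- organoids. Each organoid library is above each AOM/DSS library of its label. The later members *Col6a4* and *Col6a5* went the other way. *Col6a4* fell from 42.2, 41.7 and 40.9 CPM in wild type AOM/DSS colon to 13.4, 2.19 and 0.201 CPM in wild type organoids, and *Col6a5* from 9.94, 22.4 and 16.3 CPM to 0.114, 0 and 0.134 CPM, where the 3 organoid libraries held 4 reads together. *Col6a4* was called lower in both labels. *Col6a5* was below the low-count filter within organoids and passed it through tissue, where it is high, so its values are given as a description. It shares 3.42% of its 50-base windows with *Col6a6*, so part of its reads could be split between them.

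The remaining chains are given by class. Of 8 FACIT chains tested, 6 were higher in wild type organoids, and in libraries labelled RNF138-/- 2 were higher and *Col9a3* lower. *Col16a1* and *Col12a1* were the ones higher in both, with log2 differences of 2.59 ± 0.38 and 4.50 ± 0.42 for *Col16a1* (edgeR adjusted p = 3.41e-05 and 3.15e-07) and 3.06 ± 0.55 and 4.24 ± 0.58 for *Col12a1* (edgeR adjusted p = 0.000199 and 1.5e-05), which coats type I fibrils. Both multiplexins rose in both labels, *Col18a1* to 404, 299 and 179 CPM in wild type and 479.6, 603 and 632 CPM in labelled RNF138-/- organoids. The folds were, for *Col15a1*, 13.5-fold and 40.0-fold (edgeR adjusted p at most 1.58e-06) and, for *Col18a1*, 2.44-fold and 3.72-fold (edgeR adjusted p at most 0.0172). Of the 4 transmembrane chains, *Col23a1* was called, with 83.9, 115 and 102 CPM in wild type organoids and 64.1, 54.1 and 80.4 CPM in labelled RNF138-/- organoids. *Col7a1*, which anchors the basement membrane to the fibrils below, was higher in both labels (2.55-fold and 3.90-fold, edgeR adjusted p = 0.0381 and 0.00451). The transmembrane chains without a call, *Col13a1*, *Col17a1* and *Col25a1*, lay at 2.68 to 7.76, 1.19 to 5.54 and 0.0669 to 1.18 CPM in organoids; *Col17a1* is the hemidesmosome collagen of epithelial cells. *Col28a1* was higher in libraries labelled RNF138-/- (log2 2.72 ± 0.36, edgeR adjusted p = 9.73e-06), with 0.35 ± 0.35 in wild type.

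Genes that serve the collagens were counted in the same way, beside the 17.5% of all genes called higher and 26.8% lower in wild type and 17.9% and 26.5% in libraries labelled RNF138-/-. Of 23 genes for folding and modification of the chains, 14 were higher and 2 lower in wild type organoids than in AOM/DSS colon, and 17 were higher in libraries labelled RNF138-/-. Of 12 tested genes for propeptide removal and crosslinking, 8 and 10 were higher. Of 16 other basement membrane proteins, 8 were higher and 1 lower in wild type, and 10 were higher in libraries labelled RNF138-/-; of 9 tested receptors, 3 and 4 were higher and 2 and 1 lower, so the receptors went both ways. Markers of other cells moved beside these genes. The 10 fibroblast markers summed to 567 to 604 CPM in wild type AOM/DSS colon and 383 to 469 CPM in labelled RNF138-/- AOM/DSS colon, and to 1396 to 2849 CPM and 5972 to 7364 CPM in organoids, with none of the 10 at 0 in a group; 7 of the 10 were called higher and 1 lower in wild type, and 8 higher in libraries labelled RNF138-/-. The 8 smooth muscle markers went from 2624 to 8531 CPM in wild type AOM/DSS colon to 267 to 1362 CPM in organoids, with 0 called higher and 7 lower. In libraries labelled RNF138-/- they went from 121 to 249.9 CPM to 1606 to 1794 CPM, with 5 called higher and 1 lower. The 8 endothelial markers summed to 6.04 to 9.21 CPM and 9.13 to 10.6 CPM in the organoids, with all 8 called lower. Of these 8, 5 passed the low-count filter within organoids, so the lower calls of the other 3, which passed it through tissue, are a description. All 5 leukocyte markers were lower too, of which 2 passed within organoids. The 5 adipocyte markers summed to 36.3 to 50.8 and 1.42 to 2.71 CPM in AOM/DSS colon and 3.45 to 5.78 and 5.28 to 8.71 CPM in organoids. Of 4 tested, 4 were called lower in wild type, and 1 higher and 0 lower in libraries labelled RNF138-/-. Within organoids 2 of them passed the filter, so part of these calls is a description. The 4 mesothelium markers summed to 13.6 to 20.3 and 9.93 to 27.6 CPM in AOM/DSS colon and 235 to 427 and 227 to 355 CPM in organoids. In wild type 2 of them were called higher and 1 lower, and in libraries labelled RNF138-/- 2 higher. Within organoids 2 of the 4 passed the filter, so part of these calls is a description. The 5 enteric glia markers summed to 2.87 to 6.04 and 1.74 to 2.38 CPM in organoids, with 4 and 2 called lower, of which 2 markers passed within organoids. The 6 skeletal muscle markers summed to 26.4 to 51.0 and 29.5 to 32.0 CPM, with 3 and 2 of 5 tested called higher and 1 and 1 lower. The part that cells with fibroblast, smooth muscle or mesothelium markers have in the collagen levels of the cultures was not tested.

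Partner chains that join in 1 molecule were set against each other per kb of longest transcript, as a description. Type I collagen is built from more *Col1a1* than *Col1a2* chains. The ratio of *Col1a1* to *Col1a2* was 0.748 ± 0.187 (SD, n = 3) in wild type DSS colon, 0.563 ± 0.157 in wild type AOM/DSS colon, 1.04 ± 0.154 in wild type organoids and 1.10 ± 0.0845 in organoids labelled RNF138-/-. The ratio of *Col4a1* to *Col4a2* lay between 1.18 and 1.73 in all 18 libraries. It was 1.52 to 1.73 in wild type organoids, above every wild type DSS library but overlapping the 1.46 to 1.61 of wild type AOM/DSS colon. In organoids labelled RNF138-/- it was 1.41 to 1.46, below the 1.49 to 1.57 of AOM/DSS colon of that label. That of *Col4a5* to *Col4a6* was 1.69 to 1.87 in wild type DSS colon, 1.92 to 3.09 in wild type AOM/DSS colon, 7.63 to 9.56 in labelled RNF138-/- AOM/DSS colon and 40.5 to 47.1 and 45.6 to 122 in organoids. The ratio of the X-linked pair spanned a wider range than that of the first pair. The ratio of *Col3a1* to *Col1a1* was 3.26 to 6.14 in wild type and 2.61 to 3.19 in labelled RNF138-/- AOM/DSS colon, and 0.583 to 0.697 in wild type organoids.

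**Figure D3:**
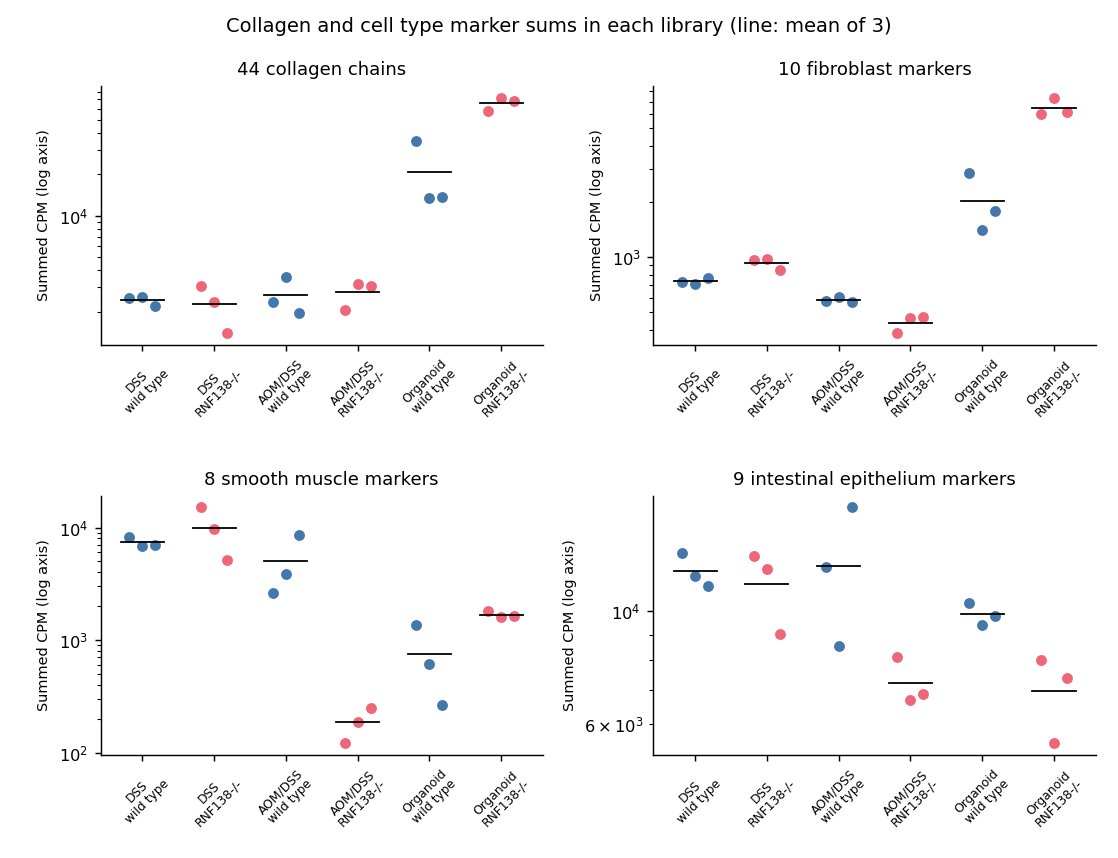
Summed CPM per library on a log axis for the 44 collagen chains and for 3 marker lists; blue is wild type, red is labelled RNF138-/- and the line is the mean of 3. Collagen and fibroblast marker sums are both highest in organoids labelled RNF138-/- and next in wild type organoids, and smooth muscle markers are lowest in AOM/DSS colon labelled RNF138-/-.

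The comparison of genotype labels asked how loss of RNF138 alters each model. Within organoids it called 19 of 40 tested chains higher in libraries labelled RNF138-/- and 4 lower, where 7.94% of 15294 genes were called higher and 7.04% lower. The median log2 difference of the chains was 1.32, and that of all genes -0.04. The chains below the filter were *Col6a5*, *Col6a6*, *Col19a1* and *Col26a1*. Of 11 fibrillar chains 9 were called, all higher, of type VI 3 of 4, of type IV 2 of 6, and of 8 FACIT chains 1 higher and 4 lower. The labels also separate male from female cultures here. Fibroblast markers were 1396 to 2849 CPM in wild type and 5972 to 7364 CPM in libraries labelled RNF138-/-, with 5 of 10 called higher and 0 lower, and the 8 smooth muscle markers 267 to 1362 and 1606 to 1794 CPM, with 3 of 7 tested called higher. The 5 leukocyte markers summed to 7.60 to 15.5 and 81.4 to 121 CPM, with Cd3e at 0 in both and 1 of 2 tested called higher, and the 9 of intestinal epithelium to 9404 to 10405 and 5490.5 to 8024 CPM, with 2 called lower. Of the other lists, 1 of 5 tested endothelial markers was higher, and 1 of 2 enteric glia and 1 of 5 stratified squamous markers were lower. Their part in the collagen differences was not tested.

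The levels given above for organoids show the size of these differences. *Col3a1* was 4.35-fold higher in libraries labelled RNF138-/- (log2 2.12 ± 0.38, edgeR adjusted p = 0.00542), and its groups did not overlap. Its log2 difference was 2.72 without wild type replicate 1. Type I was higher by less, with log2 differences of 1.46 ± 0.41 for *Col1a1* (edgeR adjusted p = 0.0266) and 1.44 ± 0.34 for *Col1a2* (edgeR adjusted p = 0.0142). *Col5a3*, a minor chain built into type I fibrils, was at 178, 77.5 and 131 CPM in wild type and 312, 439 and 429 CPM in libraries labelled RNF138-/- (log2 1.57 ± 0.28, edgeR adjusted p = 0.00514). *Col27a1*, a short fibrillar chain best known from cartilage, was at 19.5, 16.9 and 8.96 CPM and 37.7, 57.7 and 42.8 CPM (log2 1.56 ± 0.28, edgeR adjusted p = 0.00587). None of these pairs of groups overlapped. The fibrillar chains outside the calls were the cartilage chains *Col2a1* and *Col11a2*, with differences of -0.79 ± 0.17 (edgeR adjusted p = 0.00946) and -0.74 ± 0.21 (edgeR adjusted p = 0.0267), both negative and under 2-fold.

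Of type IV, *Col4a1* and *Col4a2* were higher (3.40-fold and 3.78-fold, edgeR adjusted p = 0.0114 and 0.0121), and the other 4 chains were not called, the X-linked *Col4a5* at -0.17 ± 0.37 and *Col4a6* at -0.64 ± 0.56 on the log2 scale. *Col6a3* rose from 250.3, 94.5 and 100.3 CPM to 607, 957 and 715 CPM (log2 2.31 ± 0.38, edgeR adjusted p = 0.00413, and 2.93 without wild type replicate 1), and *Col6a1* by 3.08-fold (edgeR adjusted p = 0.00888) and *Col6a2* by 2.89-fold, from 323, 129 and 156 CPM to 485, 693 and 634 CPM (edgeR adjusted p = 0.00951). *Col7a1* went from 33.0, 19.0 and 12.2 CPM to 91.9, 95.2 and 97.7 CPM (log2 2.10 ± 0.30, edgeR adjusted p = 0.00295). For *Col6a1*, *Col6a3* and *Col7a1* each culture labelled RNF138-/- was above each wild type culture. *Col8a1* (3.92-fold, edgeR adjusted p = 0.006), *Col16a1* (3.30-fold, from 410.3, 186 and 223 CPM to 817, 1083 and 883 CPM, edgeR adjusted p = 0.00413) and *Col28a1* (3.40-fold, from 6.98, 4.15 and 3.88 CPM to 17.6, 24.3 and 11 CPM, edgeR adjusted p = 0.0065) were higher, while *Col10a1* was not called (0.27 ± 0.49 on the log2 scale, edgeR adjusted p = 0.689).

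The 4 chains called lower were FACIT chains. By the adjusted p with no fold limit 8 were lower, the others being *Col2a1*, *Col11a2*, *Col20a1* and *Col23a1*, each under 2-fold. *Col9a1*, *Col9a2* and *Col9a3* encode type IX collagen, which decorates type II fibrils in cartilage, and all 3 were lower in libraries labelled RNF138-/-. *Col9a2* (chr4:121039385-121055322, plus strand) was at 161, 237 and 236 CPM in wild type and 35.8, 32.2 and 41.3 CPM in libraries labelled RNF138-/-, 6.01-fold lower (log2 -2.59 ± 0.19, edgeR adjusted p = 0.000414). *Col9a3* was at 20.1, 28.5 and 45.2 CPM and 5.08, 4.27 and 5.80 CPM (log2 -2.68 ± 0.31, edgeR adjusted p = 0.00149), and *Col9a1* at 2.46, 5.41 and 1.67 CPM and 0.488, 1.00 and 1.26 CPM (log2 -1.82 ± 0.53, edgeR adjusted p = 0.0309). For each of the 3 the lowest wild type culture is above the highest culture labelled RNF138-/-. Without wild type replicate 2 or any 1 culture labelled RNF138-/-, 3 chains were called lower in place of 4. *Col9a2*, *Col9a3* and *Col22a1* kept their call in every setting tried, so the call lost was that of *Col9a1*. *Col22a1*, a FACIT chain of tissue junctions such as muscle and tendon, was at 4.29, 2.82 and 3.01 CPM and 0.836, 0.897 and 1.12 CPM (log2 -1.88 ± 0.31, edgeR adjusted p = 0.00413). Of the exon bases of *Col9a3*, 6.07% lie opposite an exon of *Tcfl5*, and the library kit does not mark strand, so reads there cannot be assigned to either gene.

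**Figure D4:**
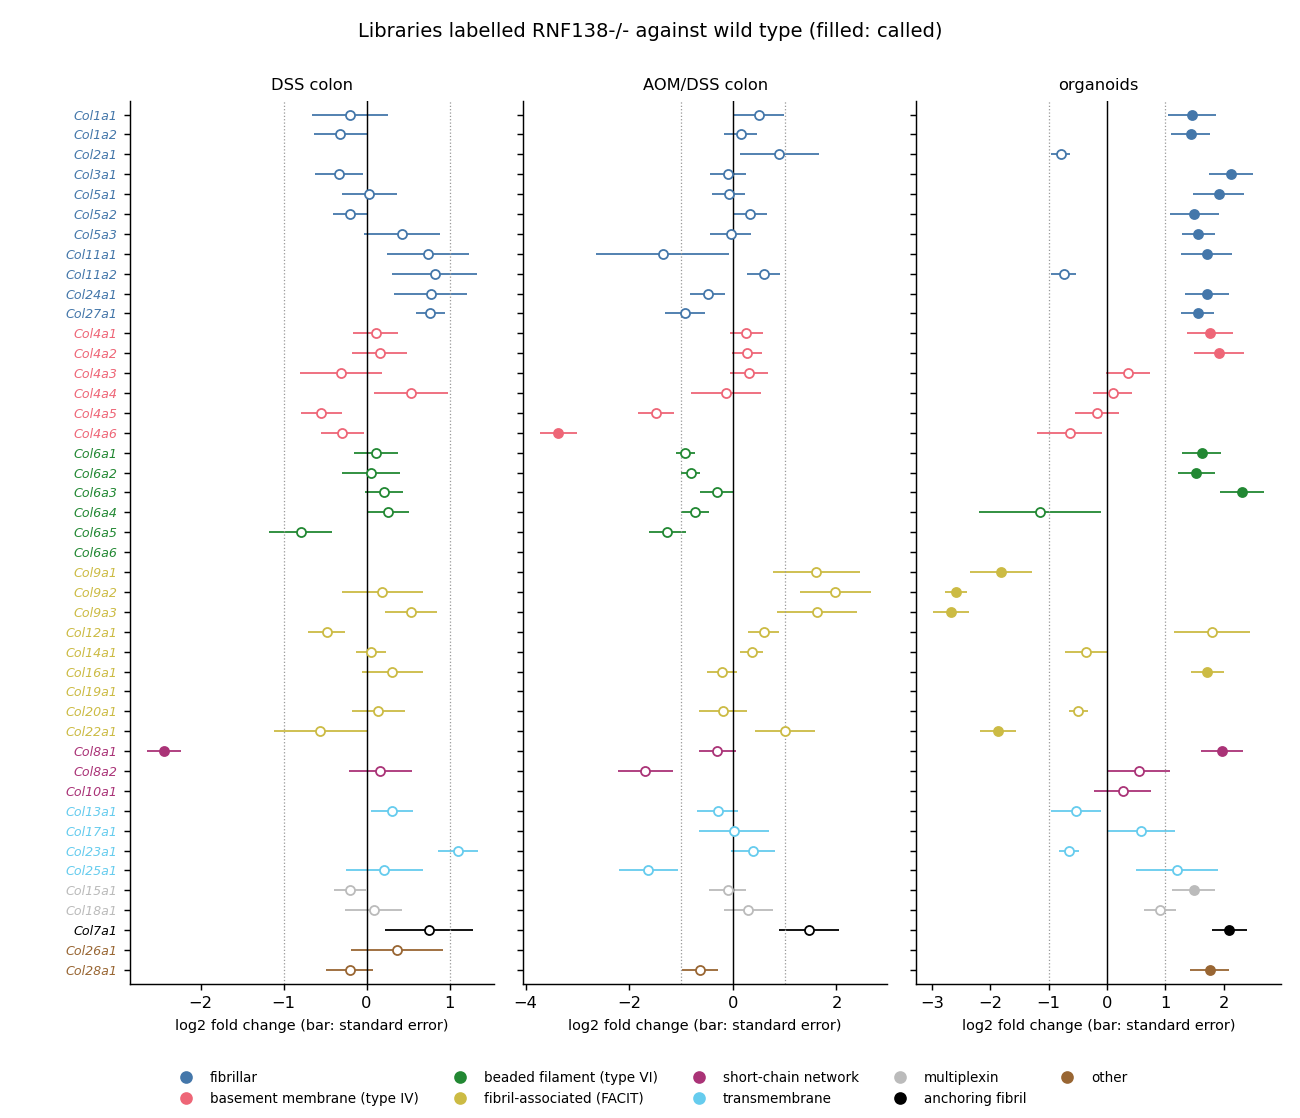
Fitted log2 fold change of each tested chain, libraries labelled RNF138-/- against wild type, in DSS colon, AOM/DSS colon and organoids; bars are standard errors, filled points are called and each panel has its own scale. In organoids 19 filled points lie to the right of 0 and 4, all FACIT chains, to the left; each tissue panel holds 1 filled point, Col8a1 in DSS and Col4a6 in AOM/DSS.

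Beside the chains, 10 of 23 folding genes were higher in organoids labelled RNF138-/- and 1 lower, where 7.94% of all genes were higher and 7.04% lower. *P4ha2*, a subunit of prolyl 4-hydroxylase, which stabilises the helix, differed by 1.10 ± 0.18 on the log2 scale (edgeR adjusted p = 0.00427), *Plod2*, a lysyl hydroxylase, by 1.47 ± 0.25 (edgeR adjusted p = 0.00486), and *Sec23a*, a coat protein of the vesicles that export procollagen, by 1.03 ± 0.18 (edgeR adjusted p = 0.00528). Of 12 tested genes for propeptide removal and crosslinking 6 were higher, among them the crosslinking oxidase *Loxl1* (1.74 ± 0.35, edgeR adjusted p = 0.00794), the N-propeptidase *Adamts2* (1.80 ± 0.37, edgeR adjusted p = 0.00904) and the enhancer protein *Pcolce* (1.38 ± 0.30, edgeR adjusted p = 0.0102). Of 15 tested basement membrane proteins 9 were higher, with the laminin chains *Lama2* (1.89 ± 0.31, edgeR adjusted p = 0.00408) and *Lamb1* (1.68 ± 0.30, edgeR adjusted p = 0.00535) and *Pxdn*, the peroxidase that links type IV collagen (1.42 ± 0.23, edgeR adjusted p = 0.00419). Of 8 tested receptors 3 were higher: the receptor kinase *Ddr2* (1.67 ± 0.27, edgeR adjusted p = 0.00397) and the integrin subunits *Itga2* (1.05 ± 0.20, edgeR adjusted p = 0.00649) and *Itga11* (2.21 ± 0.48, edgeR adjusted p = 0.0106). 

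In DSS colon 38 chains could be tested (all but *Col2a1*, *Col6a6*, *Col9a1*, *Col10a1*, *Col17a1* and *Col19a1*), 0 were called higher and 1 lower, *Col8a1*. Of 16623 genes 0.018% were called higher and 0.0722% lower. Taking the p before adjustment (below 0.05, with the same fold), 1 chain was higher and 1 lower, and DESeq2 called 1 higher and 1 lower. *Col8a1* (chr16:57624258-57754737, minus strand) was at 76.7, 70.1 and 91.9 CPM in wild type and 11.9, 15.1 and 16.1 CPM in libraries labelled RNF138-/-, 5.43-fold lower (log2 -2.44 ± 0.21, edgeR adjusted p = 0.0103). The groups are far apart, and the wild type DSS libraries are also above all 6 AOM/DSS libraries. The call was lost without wild type replicate 1 (log2 -2.48), wild type replicate 3 (-2.33) or replicate 2 labelled RNF138-/- (-2.47), with edgeR adjusted p of 0.0673, 0.0772 and 0.123, while the size changed little. *Col8a2*, its partner, was at 7.47, 6.81 and 5.27 CPM and 11.4, 6.17 and 4.09 CPM, which overlap. Of the fibroblast and smooth muscle markers, edgeR called 0, with 1 fibroblast marker lower by the p before adjustment. The summed markers of some other cells did not overlap between wild type and libraries labelled RNF138-/-, but edgeR called 0 of 2 adipocyte, 4 enteric glia and 4 skeletal muscle markers tested. By the p before adjustment 2, 1 and 3 of them were higher. Adipocyte markers summed to 12.2 to 15.4 and 35.5 to 82.8 CPM and enteric glia markers to 16.5 to 21.4 and 27.7 to 51.8 CPM. Skeletal muscle markers summed to 11.3 to 14.2 and 20.0 to 62.4 CPM and fibroblast markers to 712 to 765 and 846 to 976 CPM. Their part in the values of *Col8a1* was not tested. The median log2 difference was 0.13 for the chains and 0.02 for all genes, and edgeR called 0 genes of the 4 lists, with 1 folding gene lower by the p before adjustment.

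**Figure D5:**
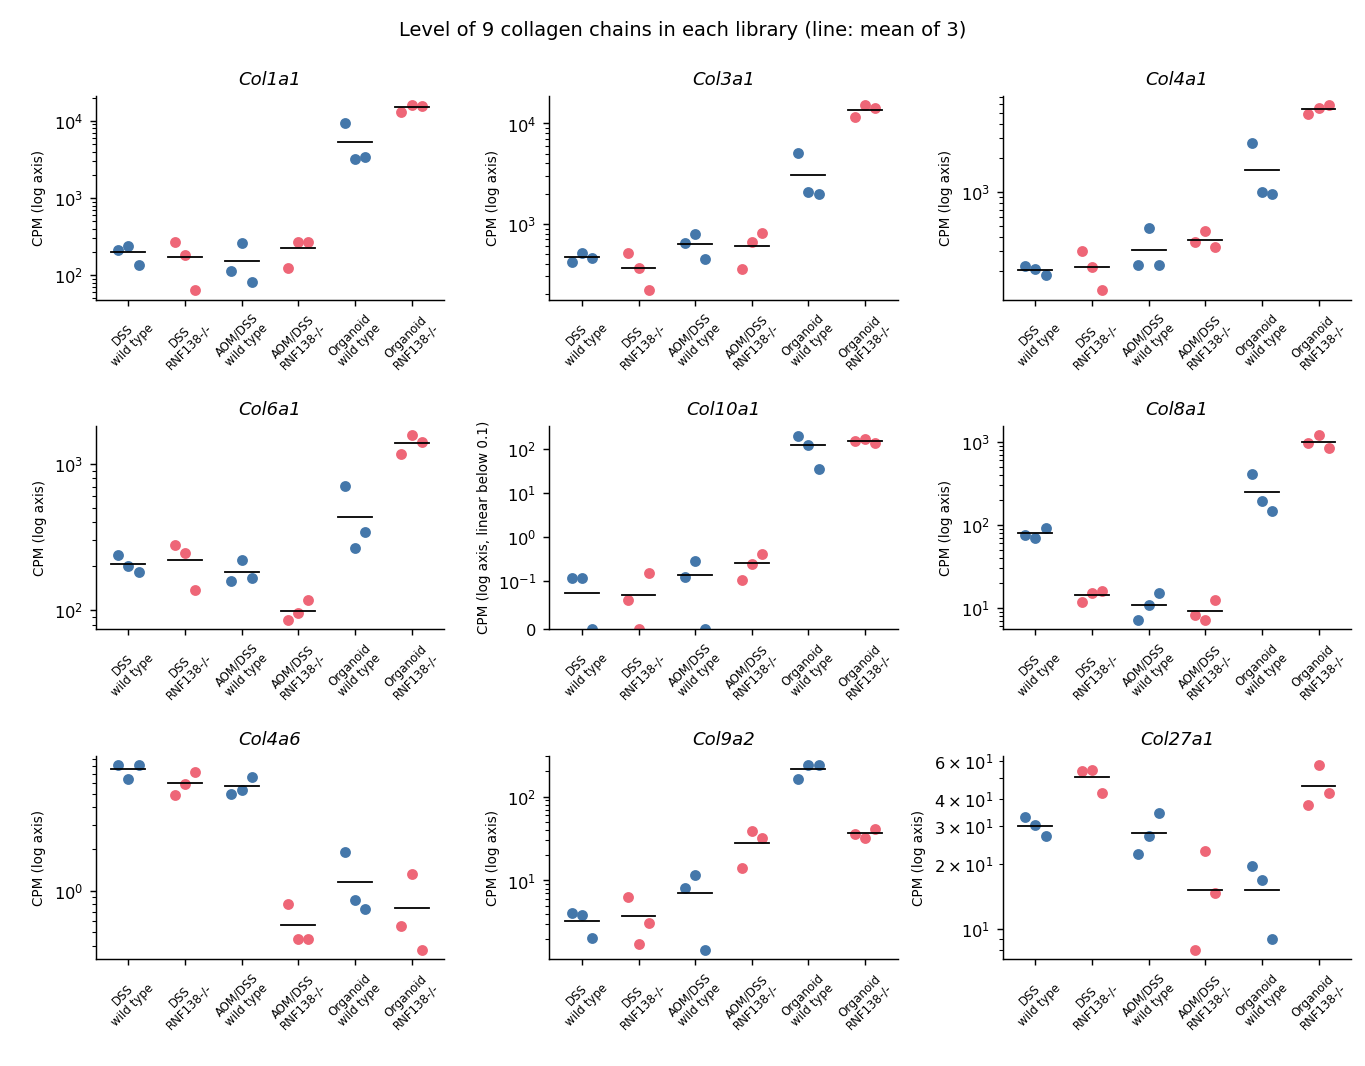
CPM of 9 chains in each library, 3 points per group with the mean as a line, blue for wild type and red for labelled RNF138-/-; the axes are logarithmic and differ between panels, and that of Col10a1 is linear below 0.1 to show 0. Col8a1 is high in wild type DSS colon and in organoids, Col4a6 low in AOM/DSS colon labelled RNF138-/- and in organoids, and Col9a2 highest in wild type organoids.

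In AOM/DSS colon 40 chains were tested (all but *Col6a6*, *Col10a1*, *Col19a1* and *Col26a1*), 0 were called higher and 1 lower, *Col4a6*, against 0.546% of 17752 genes higher and 4.83% lower. Taking the p before adjustment, 2 were higher and 5 lower, and DESeq2 called 1 higher and 4 lower. *Col4a6* (chrX:141165403-141474076, minus strand), which with *Col4a5* forms the type IV network of smooth muscle basement membranes, was at 5.0, 5.33 and 6.66 CPM in wild type and 0.797, 0.445 and 0.448 CPM in libraries labelled RNF138-/-, 10.3-fold lower (log2 -3.37 ± 0.36, edgeR adjusted p = 0.0193). Its neighbour *Col4a5* was at 11.4, 16.2 and 12.6 CPM and 7.49, 3.97 and 3.36 CPM, with a difference of -1.48 ± 0.35 that missed the threshold (edgeR adjusted p = 0.0544). Neither pair of groups overlaps. The call of *Col4a6* was lost without any 1 of the 3 libraries labelled RNF138-/-, with log2 differences of -3.69, -3.20 and -3.22 and edgeR adjusted p of 0.0784, 0.114 and 0.0522 for replicates 1, 2 and 3.

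Type VI chains lay in the same direction. *Col6a1* was at 158, 222 and 166 CPM and 85.6, 95.2 and 117 CPM, a difference of -0.92 ± 0.19 that passed the adjusted p (0.0466, edgeR) but not the 2-fold limit, and *Col6a2* at 119.6, 171 and 126 CPM and 70.9, 77.4 and 94.7 CPM (-0.82 ± 0.19, edgeR adjusted p = 0.0529). The groups of both chains do not overlap. *Col3a1* and *Col1a1* overlapped between the labels, with -0.09 ± 0.35 and 0.51 ± 0.48 on the log2 scale, and so did *Col4a1* (0.26 ± 0.32). Smooth muscle markers moved with *Col4a6*: the 8 of them summed to 2624, 3846 and 8531 CPM in wild type and 121, 185 and 249.9 CPM in libraries labelled RNF138-/-, 7 of 8 were called lower and none was at 0. The 5 adipocyte markers summed to 36.3 to 50.8 and 1.42 to 2.71 CPM, with Adipoq and Lep at 0 in the libraries labelled RNF138-/-. Fibroblast markers summed to 567 to 604 and 383 to 469 CPM, with 1 of 10 called lower. Sums that did not overlap were also those of enteric glia (16.8 to 27.1 and 13.1 to 14.8 CPM, 1 of 5 called lower), skeletal muscle (10.6 to 33.2 and 6.51 to 7.81 CPM, 1 of 4 tested lower) and intestinal epithelium (8526 to 16034 and 6679 to 8129 CPM, 2 of 9 lower). All 3 tested adipocyte markers, 1 of 2 tested mesothelium markers and 1 of 5 leukocyte markers were lower too. The part of these cells in the values of *Col4a6*, *Col4a5*, *Col6a1* and *Col6a2* was not tested. Of the lists of collagen-serving genes, 1 gene was called, *Ddr2*, with -1.45 ± 0.25 (edgeR adjusted p = 0.0343).

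Whether the difference between labels itself differed between models was tested as an interaction. From DSS to AOM/DSS, 1 chain of 42 was called higher and 2 lower, where 2.57% and 9.37% of 19390 genes were. The interaction was -3.02 ± 0.58 for *Col4a6* (edgeR adjusted p = 0.0044) and -1.63 ± 0.46 on the log2 scale for *Col27a1* (edgeR adjusted p = 0.0274), and 2.21 ± 0.49 for *Col8a1* (edgeR adjusted p = 0.00995). *Col4a6* was at 8.10, 6.42 and 8.03 CPM and 4.91, 5.86 and 7.21 CPM in wild type and labelled RNF138-/- DSS colon. *Col27a1* was at 33.2, 30.5 and 27.0 CPM and 54.3, 54.8 and 42.8 CPM in DSS colon and 22.3, 26.9 and 34.4 CPM and 7.97, 22.9 and 14.7 CPM in AOM/DSS colon, so the libraries labelled RNF138-/- were above wild type in the first and overlapped it in the second; this call was lost without wild type DSS replicate 3, DSS replicate 1 labelled RNF138-/-, or AOM/DSS replicate 3 of either label. All 8 smooth muscle markers were called lower in the same interaction, as were 2 of 10 fibroblast, 4 of 4 tested adipocyte, 4 of 5 enteric glia, 3 of 4 mesothelium and 3 of 9 intestinal epithelium markers. Of the adipocyte markers 2 passed the low-count filter within DSS and 3 within AOM/DSS colon, and of the mesothelium markers 2 within AOM/DSS colon, so part of these calls is a description.

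From AOM/DSS to organoids, 14 of 42 chains were called higher and 4 lower, with 11.4% and 7.54% of all genes. Without TMM scaling the split was 12 higher and 6 lower. The 4 lower were the 3 type IX chains and *Col22a1*: the interaction was -4.55 ± 0.74 for *Col9a2* (edgeR adjusted p = 0.000675), -4.31 ± 0.80 for *Col9a3* (edgeR adjusted p = 0.0016; -5.30 without wild type AOM/DSS replicate 2) and -2.90 ± 0.73 for *Col22a1* (edgeR adjusted p = 0.0101). *Col9a2* was at 8.06, 11.5 and 1.48 CPM in wild type and 14.0, 39.1 and 32.0 CPM in labelled RNF138-/- AOM/DSS colon, opposite in order to the organoids, and *Col9a3* at 12.6, 31.2 and 2.59 CPM and 34.1, 76.9 and 35.4 CPM. In tissue the difference of either chain was not called (1.98 ± 0.69 and 1.62 ± 0.78). The higher ones held *Col6a1*, *Col6a2*, *Col6a3* and *Col6a5* of type VI, 4 fibrillar chains with *Col27a1* (2.46 ± 0.46, edgeR adjusted p = 0.00183), *Col3a1* (2.19 ± 0.55, edgeR adjusted p = 0.0095; 2.78 without wild type organoid replicate 1) and *Col24a1* (2.19 ± 0.57, edgeR adjusted p = 0.0117) among them, and *Col28a1*, *Col8a1*, *Col4a6*, *Col16a1*, *Col15a1* and *Col25a1*. *Col22a1* was at 1.25, 1.58 and 0.185 CPM in wild type and 1.70, 2.35 and 2.42 CPM in labelled RNF138-/- AOM/DSS colon, where the order is again opposite to that of the organoids. *Col24a1*, a fibrillar chain of developing bone, was at 3.75, 3.31 and 2.77 CPM and 1.54, 3.32 and 2.33 CPM in AOM/DSS colon and 13.8, 5.72 and 17.5 CPM and 34.8, 57.7 and 33.5 CPM in organoids. Type I chains were not called here (*Col1a1* 0.93 ± 0.74, *Col1a2* 1.27 ± 0.53). Of the fibroblast markers 7 of 10 and of the smooth muscle markers 8 of 8 were called higher in this interaction, and 2 each of the adipocyte, enteric glia and mesothelium markers. *Col6a5* is a description here too, since it was below the filter within organoids.

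AOM/DSS colon was also compared with DSS colon of the same label. In wild type, 4 of 42 were higher and 2 lower, against 9.78% and 3.81% of 19390 genes. Among libraries labelled RNF138-/-, 7 were higher and 9 lower, against 17.5% and 19.6%; without TMM scaling the split was 10 higher and 5 lower. The chains called higher in both labels were *Col9a3* and *Col7a1*, beside *Col2a1*, which is given as a description since it was below the filter within DSS colon and passed it through the other groups, where it is higher. *Col9a3* rose from 1.37, 1.53 and 1.25 CPM and 2.04, 2.30 and 1.61 CPM in DSS colon to the AOM/DSS levels above (log2 3.49 ± 0.63 in wild type, edgeR adjusted p = 0.00118; 4.62 ± 0.64 in libraries labelled RNF138-/-, edgeR adjusted p = 3.23e-05), with 2.45 in wild type without AOM/DSS replicate 2. *Col7a1* went from 2.74, 3.58 and 1.19 CPM and 7.07, 3.39 and 2.17 CPM to 7.69, 11.8 and 6.10 CPM and 7.97, 22.3 and 42.5 CPM (log2 1.78 ± 0.57 and 2.54 ± 0.56, edgeR adjusted p = 0.0382 and 0.00129). Without DSS replicate 1 or AOM/DSS replicate 3 labelled RNF138-/- the second difference was 3.13 or 1.86. Its wild type call was lost without DSS replicate 1, 2 or 3 or AOM/DSS replicate 1 or 2 of wild type. Markers of stratified squamous epithelium, where *Col7a1* anchors the epidermis, summed to 6.67, 6.64 and 5.96 CPM and 22.2, 15.1 and 6.56 CPM in DSS colon and 48.6, 40.7 and 7.68 CPM and 139, 34.7 and 28.8 CPM in AOM/DSS colon. Of 7 tested, 4 were called higher and 0 lower in wild type, and 4 higher and 3 lower in libraries labelled RNF138-/-. Within DSS colon 3 passed the low-count filter and within AOM/DSS colon 5, so part of these calls is a description. The part of such cells in the values of *Col7a1* was not tested. *Col2a1* had 0 reads in the 3 wild type DSS libraries and 19 in wild type AOM/DSS, at least 6.79-fold higher against a floor of 3 counts over the group, and the third wild type AOM/DSS library had 0.

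*Col8a1* was lower in wild type AOM/DSS than in wild type DSS colon, with a difference of -2.84 ± 0.37 on the log2 scale (edgeR adjusted p = 8.77e-05), with -0.63 ± 0.35 in libraries labelled RNF138-/-, which started from the low DSS level. The other lower call in wild type was *Col14a1*, a FACIT chain (-1.22 ± 0.31, edgeR adjusted p = 0.0109). Among libraries labelled RNF138-/- the lower calls were *Col4a6* (-3.42 ± 0.44, edgeR adjusted p = 2.01e-05), *Col27a1* (-1.73 ± 0.33, edgeR adjusted p = 0.000429), *Col8a2*, *Col6a1*, *Col6a2*, *Col23a1*, *Col25a1* and *Col28a1*, beside *Col26a1*. The last was below the filter within AOM/DSS colon and within organoids and passed it through DSS colon, where it is high (14, 10 and 7 reads against 0, 5 and 3), so it is a description. Those of *Col6a1*, *Col6a2*, *Col23a1* and *Col28a1* were lost without TMM scaling. Those of *Col6a1* and *Col6a2* were also lost without DSS replicate 1 of that label. That of *Col23a1* was also lost in a fit of the 6 libraries alone, without DSS replicate 3 or without AOM/DSS replicate 1 of that label. The other higher calls were *Col24a1* in wild type (1.56 ± 0.44, lost without wild type DSS replicate 1 or 2 or AOM/DSS replicate 1) and, in libraries labelled RNF138-/-, *Col5a2* (1.27 ± 0.39), *Col9a2* (2.92 ± 0.55, 3.51 without DSS replicate 1 of that label), *Col18a1* (1.27 ± 0.43) and *Col22a1* (1.77 ± 0.53, 2.38 without the same library and lost without DSS replicate 2 of that label). The main chains were not called, *Col3a1* being at 0.45 ± 0.38 and 0.74 ± 0.38, *Col1a1* at -0.37 ± 0.52 and 0.39 ± 0.52, and *Col4a1* at 0.61 ± 0.38 and 0.81 ± 0.38 on the log2 scale. The wild type count was 10 without the third wild type AOM/DSS library, which had the lowest total of all, 7 higher and 3 lower. Markers of several wall cells were called lower in AOM/DSS colon labelled RNF138-/- too, namely all 8 of smooth muscle, 5 of 10 of fibroblasts, 4 of 4 tested of adipocytes, 4 of 5 of enteric glia and 3 of 4 of mesothelium. The other enteric glia marker, 1 of 5, was called higher there. In wild type the lower calls were 0, 2, 0, 1 and 1, and 2 adipocyte markers and 1 enteric glia marker were called higher. Of 8 endothelial markers, 1 was called lower and 0 higher in each label. The adipocyte sum was 12.2 to 15.4 CPM in wild type DSS and 36.3 to 50.8 CPM in wild type AOM/DSS colon, and 35.5 to 82.8 and 1.42 to 2.71 CPM in libraries labelled RNF138-/-. Within AOM/DSS colon 3 adipocyte and 2 mesothelium markers passed the low-count filter, and within DSS colon 2 adipocyte markers did, so part of these calls came from markers that passed it through the groups where they are high. Of 9 markers of intestinal epithelium, 4 were lower in libraries labelled RNF138-/- and 1 in wild type, and of 5 tested of skeletal muscle 3 and 0. The fibroblast sum was 846 to 976 CPM in DSS and 383 to 469 CPM in AOM/DSS colon labelled RNF138-/-, and 712 to 765 and 567 to 604 CPM in wild type. Their part in the collagen calls was not tested. In the 4 lists of collagen-serving genes, 11 of 23 folding genes were called lower and 1 higher among libraries labelled RNF138-/-, and 3 lower and 0 higher in wild type. In the same order of labels, basement membrane proteins were higher in 4 and 5 of 16 and lower in 2 and 1. Of 12 tested genes for propeptide removal and crosslinking, 1 and 0 were higher and 3 and 1 lower. Of 9 tested receptors, 3 and 0 were lower and 0 higher. Over all genes 17.5% were higher and 19.6% lower among libraries labelled RNF138-/-, and 9.78% and 3.81% in wild type. The AOM/DSS libraries serve in several of the comparisons above, so these are not independent of each other.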

How the data were processed

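Total RNA of 18 libraries was sequenced with a kit that does not mark strand. The deposited file holds raw read counts per gene; per the labels, the submitters' processing notes name STAR 2.6.1d, HTSeq 0.11.2, DESeq2 and mm10, while the study's methods name Cufflinks. The fold changes and p-values deposited as the authors' own comparisons were not used. Counts were scaled by TMM and tested with edgeR 4.0.16 (quasi-likelihood, R 4.3.3) over all genes that passed its low-count filter, with Benjamini-Hochberg adjustment; calls needed both a 2-fold difference or more and an adjusted p below 0.05, as in the study. Genotype labels were compared within the 6 libraries of each model, and models and interactions in 1 fit of all 18 libraries. The script was tested on simulated data. DESeq2 1.42.0, other scalings, no low-count filter, other fits, a replicate block and leaving out each library were tried. Replicate libraries of a group differed by more than sampling noise. A test of 3 libraries against 3 by exact permutation cannot go below p = 0.1, so none was used.

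The members, gene lists and markers were chosen with earlier results of these data known. Values in every library were set to be given for the leading chain of each class in tissue, the 5 highest in organoids and the most significant called chains of each genotype comparison and interaction; *Col10a1*, *Col2a1*, *Col6a4*, *Col6a5*, *Col4a5*, *Col8a2*, *Col9a1*, *Col12a1*, *Col14a1*, *Col15a1* and other chains with values were added after their values were seen. Sequences came from GENCODE M21 and RefSeq.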

Additional observations from a re-analysis of the deposited data

Results flagged for a closer look

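The difference between genotype labels differed between models in an interaction test (edgeR adjusted p under 0.05 and at least 2-fold) for 21 pairs of chain and model contrast. Between AOM/DSS and DSS colon these were *Col4a6* (-3.02), *Col8a1* (2.21) and *Col27a1* (-1.63), on the log2 scale. Between organoids and AOM/DSS colon the negative ones were *Col9a2* (-4.55), *Col9a3* (-4.31), *Col9a1* (-3.45) and *Col22a1* (-2.90). The positive ones were *Col6a5* (3.47), *Col25a1* (2.83), *Col4a6* (2.70), *Col6a3* (2.61), *Col6a1* (2.52), *Col27a1* (2.46), *Col28a1* (2.38), *Col6a2* (2.33), *Col8a1* (2.24), *Col3a1* (2.19), *Col24a1* (2.19), *Col5a1* (1.98), *Col16a1* (1.91) and *Col15a1* (1.57). *Col6a5* had 4 reads in the 3 wild type organoid libraries, so its value depends on few reads. Sex and genotype label cannot be told apart in the organoid part of these values. The contrast between organoids and AOM/DSS colon was 3.22 for *Col6a3* and 2.78 for *Col3a1* without wild type organoid replicate 1, 1.99 for *Col4a6* without organoid replicate 2 labelled RNF138-/-, and -5.30 for *Col9a3* without wild type AOM/DSS replicate 2.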

How the results depend on the processing

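Fold changes were recomputed under other settings only for the called chains with the smallest p in each comparison. Of these 915 values, 887 kept their direction and their call, 28 lost the call and 0 reversed. They hold *Col10a1* and *Col6a5*, which had to differ, and leave out the weaker calls, so they do not describe the called chains as a whole. For the genotype labels in AOM/DSS colon, the count of called chains was 2 (0 higher, 2 lower) without a fold threshold, 2 (0 and 2) without the low-count filter, 5 (1 and 4) with DESeq2 and 5 (3 and 2) with all 18 libraries in 1 fit, against 1. In DSS colon it was 2 (1 and 1) without the filter and 2 (1 and 1) with DESeq2. Leaving out each library in turn gave 0 to 1 called chains in DSS colon, 0 to 1 in AOM/DSS colon, 18 to 27 in organoids, 28 to 31 and 29 to 30 for organoids against AOM/DSS in wild type and in libraries labelled RNF138-/-, 4 to 10 and 14 to 18 for AOM/DSS against DSS, and 2 to 4 and 13 to 27 for the 2 interactions. The replicate numbers were not used to pair the libraries. Same-numbered libraries did not all correlate above 0.1 in any comparison, but with 3 libraries per group this cannot exclude a pairing. Between the labels in DSS colon the correlations were 0.173, 0.0539 and 0.384 for replicates 1, 2 and 3. With a replicate block the counts were 1 in DSS, 1 in AOM/DSS, 24 in organoids, 30 and 29 for organoids against AOM/DSS, 6 and 16 for AOM/DSS against DSS, and 3 and 20 for the interactions. A fit with sex as a term could not be fitted in the organoids.

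Class shares depend on the length used. In the order wild type then labelled RNF138-/- for DSS, AOM/DSS and organoids, the fibrillar share was 45.6, 41.0, 48.2, 48.4, 71.4 and 73.7% per kb of longest transcript and 46.1, 42.0, 48.0, 47.9, 72.0 and 72.5% without length correction. The type IV share was 13.9, 15.9 and 17.5% in both DSS groups and wild type AOM/DSS and 10.7 and 12.7% in organoids per kb of longest transcript, 15.8, 18, 12.2 and 14.1% in DSS colon and organoids without length correction, and 22.1, 24.1, 28.6, 34.1, 17.8 and 19.6% with *Col7a1*, *Col15a1*, *Col17a1* and *Col18a1* counted in. Under each of these lengths the mean fibrillar share of both organoid groups was above that of each tissue group. Depth limits the chains with few reads, *Col2a1*, *Col6a6*, *Col9a1*, *Col10a1*, *Col19a1* and *Col26a1* in tissue.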
